A study of Mus musculus with 10 samples.

Results

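Long intergenic non-coding RNA (lincRNA) regions are stretches of the genome between annotated genes from which long transcripts without an evident reading frame have been described. The array carried 4610 such regions among its 35527 gene names, each named by its position and strand on the mouse genome build mm9 rather than by a symbol. They were chosen by that name alone, from spots that are not controls. Their 16194 probes made up 29.1% of the 55681 probes on the array, with a median of 3 and at most 10 probes per region. The forward strand held 2318 regions and the reverse strand 2289, and 3 gave no strand. Spans were 10676 bases long at the median and ran from 62 to 7128487 bases, with 1 region over 1 Mb. Many regions overlap. Joined where they overlap on 1 strand, the 4610 names formed 3365 loci, so neighbouring names often measure a single transcript and are not independent.

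The arrays were hybridized with infrarenal aorta from male C57BL/6J mice on a normal diet, 10 weeks old, taken 7 days after surgery. In the PPE group, 5 mice had received saline with type I porcine pancreatic elastase (PPE) at 1.5 U per mL, infused into the closed-off aorta for 5 min at 100 mmHg, which digests elastin and leads to an abdominal aortic aneurysm. The 5 sham mice had the same operation and infusion with saline alone, so ligation, aortotomy and pressure were common to both groups. Each array held the unpooled RNA of 1 aorta (500 ng, red dye Cy5) against a universal mouse reference RNA (green dye Cy3), so a value is a log2 ratio of aorta over reference and a change is the PPE mean minus the sham mean on that scale. The label gives the whole aortic segment, and markers of smooth muscle (10 of 10) and endothelium (7 of 7) were above background on all sham arrays, as were 6 of 6 of skeletal muscle and 7 of 8 of fat cells. So were 7 of 7 of fibroblasts, 9 of 10 of macrophages and 3 of 6 of neutrophils. Of the tested markers of T cells it was 3 of 5, and of B cells 2 of 4.

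LincRNAs are transcribed, spliced and polyadenylated much like messenger RNAs, but they are on average less conserved in sequence, lower in level and more restricted to particular cell types. Some act on the chromatin or transcription of genes beside them, some act elsewhere in the cell, and for many it may be the act of transcription, or nothing at all, that matters. In the vessel wall, long non-coding RNAs have been studied in smooth muscle differentiation and in the activation of macrophages, which enter the wall during aneurysm formation.

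Because a region has no symbol, the 60-base probe is what identifies the transcript measured. The probes below are those of 6 regions that rose and 5 that fell, all on the strand named, and they are shown because the results turn on them. Capitals mark a run of at least 25 bases that also occurs in the probe of another gene on the array. In the probe of the forward-strand region at chr1:175654606-175672031 they mark instead a run that occurs in the probe itself more than once. Probes without capitals had neither.
chr1:175705225-175717250 reverse, higher: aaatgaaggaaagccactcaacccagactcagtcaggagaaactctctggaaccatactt
chr1:175654606-175672031 reverse, higher: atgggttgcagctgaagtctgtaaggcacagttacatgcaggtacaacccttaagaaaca
chr1:175654606-175672031 forward, higher: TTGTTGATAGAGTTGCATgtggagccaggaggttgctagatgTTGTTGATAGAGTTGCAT
chr1:175653557-175671940 reverse, higher: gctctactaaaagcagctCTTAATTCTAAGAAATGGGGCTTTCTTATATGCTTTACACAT
chr2:128211990-128215223 reverse, higher: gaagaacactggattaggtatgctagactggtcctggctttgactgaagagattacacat
chr7:111526943-111545093 reverse, higher: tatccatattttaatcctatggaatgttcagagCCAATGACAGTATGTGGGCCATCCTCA
chr1:183832694-183834125 reverse, lower: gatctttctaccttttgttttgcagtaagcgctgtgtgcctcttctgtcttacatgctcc
chr3:146645022-146646977 forward, lower: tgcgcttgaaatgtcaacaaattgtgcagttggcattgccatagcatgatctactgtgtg
chr6:122741562-122743423 reverse, lower: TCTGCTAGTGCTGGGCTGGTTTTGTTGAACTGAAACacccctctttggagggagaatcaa
chr5:31856417-31916317 forward, lower: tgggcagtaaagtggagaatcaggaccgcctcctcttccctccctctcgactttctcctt
chr11:96111499-96126224 reverse, lower: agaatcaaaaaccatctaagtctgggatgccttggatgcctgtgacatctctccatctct

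Those shared runs covered 42 bases with Ifi207 (AI607873 on the array), 27 with Trim30c (Gm5598 on the array) and 36 with Uck1, and the signal of these 3 regions may hold transcripts of those genes, which was not tested. Among all 2735 tested regions, 135 had a probe sharing at least 25 bases with a probe of a name elsewhere, for 77 of them a named gene, and 21 of these 77 were called changed, where 10.6% of all tested regions were called and, over all names, 13.9% were higher and 9.96% lower. Region probes had a median GC content of 45%, against 41.7% for all other probes, and the median was 45% whether the region rose, fell or was not called. The polyadenylation signal AATAAA, searched on the probe strand only, was present in 3.92% of region probes and in 12.6% of the others. It was in 6.21% of the probes of called regions.

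Regions entered the comparison when 5 or more of the 10 arrays gave a red signal well above background, and 2735 regions (59.3%) passed, with 5614 probes in 2106 loci. Of the other names, 64.0% passed. A name passed if any of its probes did, and by probe only 5614 of the 16194 region probes passed. The share of region probes above background ran from 13.1% (sham 5) to 47.7% (PPE 1). For probes of other names it was 45.6% and 71.7% on the same arrays, so regions were detected less often by probe. For 918 regions no probe was above background on any array, and for 1102 some probe was on all 10. Detection varied between arrays more for regions than for other names. On the sham arrays 1 to 5, 69.4%, 49.8%, 58.4%, 64.5% and 27.0% of regions had red signal above background, and on the PPE arrays 1 to 5, 72.6%, 72.7%, 53.2%, 57.7% and 41.6%. The groups overlapped widely, and sham 5 and PPE 5 were the lowest of each group in this and, at 47.4% and 54.6%, in the other names. The probes just inside the threshold (562 on 5 arrays) had a median change of -0.03 (range -1.14 to 2.70), and those just outside it (702 on 4 arrays) one of -0.03 (-1.08 to 1.47). Tested regions were dim, with a median brightness (mean log2 of both channels) of 7.39, against 9.50 for other tested names.

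The main comparison asked which lincRNA regions differed in the aorta 7 days after PPE. At a limma adjusted p under 0.01, adjusted over all 22520 names tested, 159 regions (5.81%) were higher and 131 (4.79%) were lower in PPE. Over all names the same rule called 13.9% higher and 9.96% lower, so the share of regions called was below the share of all names in both directions. The groups did not overlap in 339 regions (12.4%), against 25.5% of all names. Higher regions made up 54.8% of the calls. That share was 42.8% with the deposited log ratios, and all calls were higher (12 higher, 0 lower) when arrays were centred on their median in place of loess, which moved the median change of all names from 0.02 to 0.41. With median centring, 0 regions were lower by limma although 28 had an unadjusted p under 0.05 and a lower mean. Of the 38 called regions chosen for description, 9 kept their call under median centring, all of them higher: 3 reverse-strand regions of the chromosome 1 cluster (at 175654606, 175660642 and 175705225), 3 of the chromosome 2 cluster (at 128137419, 128211990 and 128217275), chr6:57583950-57624216, chr16:84708695-84708806 and chr18:35967933-35986564. Of the called genes with a symbol set beside them, Ifi204, Ifi207 and H19 kept theirs. With loess, 697 regions had an unadjusted p under 0.05. Changes of over 2-fold were found in 81 higher and 54 lower regions. The calls fell in 142 loci with a higher and 114 with a lower region, and 2 loci had both. The SD of the change was 0.47 over regions and 0.83 over other names, and the medians were -0.01 and 0.02 over all names. Slide 1 (sham 1, PPE 1 and PPE 2) and slide 2 (sham 2, sham 3, PPE 3 and PPE 4) were each read alone. All 290 called regions had the same sign on both, and the other slides held 1 array each. These arrays also made the calls, so equal signs are no independent check. For 151 higher and 111 lower regions, every PPE value lay beyond every sham value, so no other sign was possible. With slide as a block, 163 regions were higher and 117 lower.

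**Figure D1:**
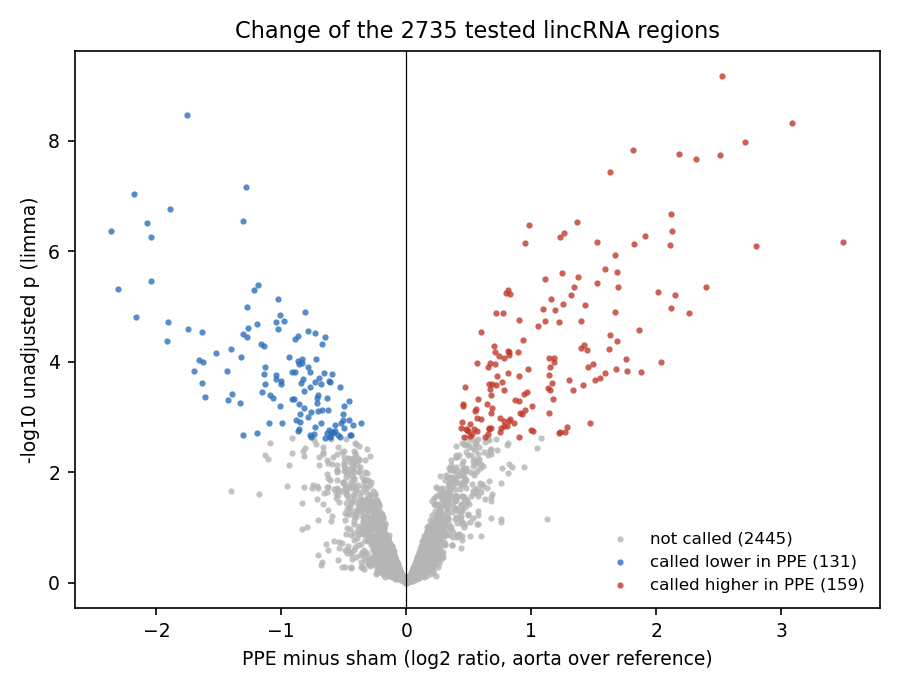
Change of each tested lincRNA region (PPE minus sham, log2 ratio, horizontal) against -log10 of its unadjusted limma p (vertical), with regions called higher in red (159), lower in blue (131) and those not called in grey. The increases reach 3.50 and the decreases -2.36.

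The lower share of calls moved with brightness but was seen in each quartile of region brightness. In the dimmest quartile of regions, 3.07% were higher and 0.877% lower, against 5.91% and 2.51% of other names in the same range of brightness. In the brightest quartile, 74 of 684 were higher and 73 lower, against 18% and 13.3% of other names. That quartile ran from 8.33 to 16.7 and held 12929 other names, so brightness was not matched within it. This is a description, with no test. Fluorescence near background pulls log ratios toward 0 with the background correction used, so changes of dim regions may be understated, which was not tested. By chromosome, between 4.62% (chromosome 8) and 14.4% (chromosome 14) of tested regions were called. The reverse strand held 95 higher regions of 1375 tested and the forward strand 64 of 1359, with 68 and 63 lower. Median span lengths were 15276 bases for higher, 13226 for lower and 10934 for other tested regions.

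In these bulk samples, fewer cells of a type and less RNA per cell cannot be told apart. Markers of several cell types moved with the groups. Of 10 macrophage markers 9 were higher, and their mean level ran from 0.25 to 0.80 on sham and from 2.39 to 3.50 on PPE arrays. Neutrophil markers were higher in 5 of 6, with 0.36 to 0.64 on sham and 2.97 to 4.1 on PPE arrays, and 1 of them was above background on no sham array. Of 10 smooth muscle markers 8 were lower, from 3.39 to 4.63 on sham to 1.74 to 2.95 on PPE arrays. Fat cell markers were lower in 3 of 8, T cell markers higher in 2 of 5 tested and fibroblast markers higher in 3 of 7, and 0 of 7 endothelial, 0 of 4 tested B cell and 0 of 6 skeletal muscle markers were called. Their part in the changes of the regions was not tested.

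The largest group of regions that rose together lay on chromosome 1, in the interferon-inducible p200 gene family, whose members bind DNA and are induced by interferons in myeloid cells. All 6 regions tested between 175653557 and 175717250 were higher, though the forward-strand ones were above background on only 1 and 2 of the 5 sham arrays. The reverse-strand region at chr1:175705225-175717250 had log2 ratios of -1.51, -2.05, -1.40, -1.42 and -1.16 on the sham and 2.07, 1.50, 1.80, 1.28 and 1.26 on the PPE arrays. Every PPE array was above the reference and every sham array below it, and the means (-1.51 ± 0.33 and 1.58 ± 0.35, SD, n = 5 each) differed by 3.09 (SE 0.20, limma adjusted p 9.81e-07). All 5 of its probes were higher, by 1.94 to 3.09. The forward strand of the same span moved less, from -0.65 ± 0.26 to 0.17 ± 0.21, a change of 0.82 (SE 0.15, adjusted p 0.00119), with 1 tested probe that was above background on 2 of the 5 sham arrays. It was not called with slide as a block (adjusted p 0.0104).

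On the other side of Ifi204, the reverse-strand region at chr1:175654606-175672031 had sham values of -0.38, -0.68, -0.16, -0.36 and 0.02 and PPE values of 2.77, 1.86, 2.63, 2.25 and 2.51. The groups were far apart, with a change of 2.72 (SE 0.19, adjusted p 1.47e-06), and all 5 probes rose by 2.62 to 2.97. Its forward strand, whose probe repeats part of itself, changed by 0.87 (SE 0.18, adjusted p 0.00285). That probe was above background on 1 of 5 sham and all 5 PPE arrays, so its p-value supports nothing. The regions at chr1:175653557-175671940 and chr1:175660642-175671878 overlap it on the reverse strand and had changes of 2.51 (SE 0.16, adjusted p 1.96e-06, with 4 sham values since 1 spot was marked as an outlier) and 2.26 (SE 0.31, adjusted p 0.000172). The probe of Ifi207 lies inside the first span on the same strand and rose by 2.31 (SE 0.23, adjusted p 1.86e-05), from 0.24 ± 0.39 to 2.56 ± 0.43. It is the probe that shares 42 of its bases with that of the first region, so the readings of these 2 names are not independent. Ifi204, with its probe 5769 bases beyond the last, rose by 3.12 (SE 0.18, adjusted p 6.45e-07), from -1.24 ± 0.30 to 1.88 ± 0.33. A probe inside the span at 175705225, which the array names only by a transcript identifier, rose by 2.58 (SE 0.28) on the reverse strand. Forward-strand names beyond the cluster rose too, E430029J22Rik by 2.43 (SE 0.26), LOC100047175 by 3.31 (SE 0.27) and a probe without a gene name by 3.56 (SE 0.29). Increases at this locus thus ran from 2.26 to 3.09 in the 4 reverse-strand regions. The forward-strand changes of 0.87 and 0.82 come from probes above background on 1 and 2 of the 5 sham arrays and on all 5 PPE arrays. Both passed the filter mainly through PPE arrays, so their calls support nothing. A separate transcript cannot be told apart from an extended one.

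The second group lay on chromosome 2 beside Bcl2l11, which encodes the pro-apoptotic protein Bim and is read from the forward strand, while all but 1 of the regions lie on the reverse strand. Of 6 tested regions between 127988295 and 128250301, 5 were higher, 1 of which entered the comparison through its PPE arrays alone. The region at chr2:128211990-128215223 had the smallest adjusted p of all regions (3.61e-07). Its values were -1.22, -0.87, -0.95, -0.76 and -0.71 on sham and 1.80, 1.34, 1.80, 1.48 and 1.72 on PPE arrays, which differ by 2.53 (SE 0.13) with little spread in either group. All 3 of its probes rose. Those at chr2:128217275-128217972 and chr2:128137419-128141735 rose by 2.13 (SE 0.21, adjusted p 1.46e-05) and 1.91 (SE 0.19, adjusted p 1.74e-05), each with 3 of 3 probes.

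The long reverse-strand region at chr2:127988295-128194920, which contains the one at 128137419, rose by 0.74 (SE 0.12, adjusted p 0.000679), with 4 of 4 probes higher. On the forward strand, chr2:128249388-128250301 was detected above background on each PPE array but on none of the sham arrays. It was at least 2.98-fold higher in PPE (adjusted p 0.00104), with PPE values of 2.90, 1.42, 1.69, 1.79 and 0.83 and sham values between -0.06 and 0.20. The sixth, chr2:128142035-128142481, was likewise not above background on any sham array, and its bound was 1.68-fold (adjusted p 0.0127, not called). Bcl2l11 itself rose by 1.02 (SE 0.24, adjusted p 0.00586), from -0.74 ± 0.47 to 0.27 ± 0.36, and its probe lay 4307 bases from the long region and 153431 bases from the one at 128137419. Its call was lost with the replicate number as a block (adjusted p 0.0156), with no filter (0.0103) and when any of sham 1, 2 or 4 or PPE 1, 3 or 4 was left out (0.0139 to 0.0183). On the other side, the nearest protein-coding gene to the regions at 128211990 and 128217275 was Anapc1, a subunit of the anaphase-promoting complex, at 223274 and 220525 bases, with a change of 0.50 that was not called.

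**Figure D2:**
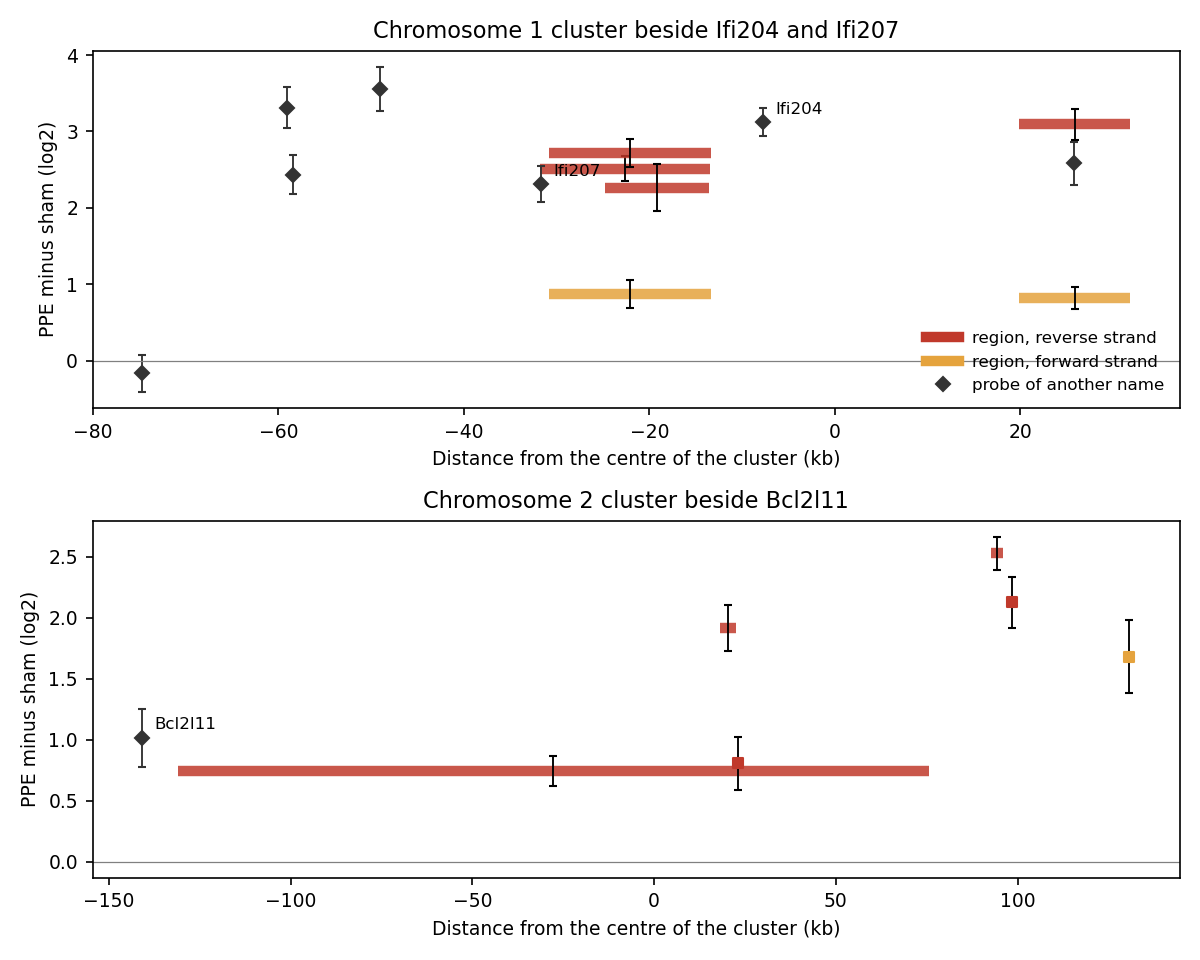
Change (PPE minus sham, log2, vertical; bars give the SE) of the tested lincRNA regions of both clusters, drawn at scale along the chromosome as distance from the cluster's centre in kb, with reverse-strand regions in red, forward-strand regions in orange and probes of other names as diamonds. On chromosome 1 the reverse-strand regions lie between 2.26 and 3.09 and the forward-strand ones at 0.87 and 0.82; on chromosome 2 all but the region at 0.81 were called higher.

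Other large increases were single loci. On chromosome 6, the reverse-strand region at chr6:4841700-4847400 had sham values of 0.67, 0.42, 1.25, 0.74 and 0.74 and PPE values of 4.63, 3.65, 3.0, 3.59 and 2.95. That is a rise of 2.80 (SE 0.29, adjusted p 2.37e-05) with no overlap and both probes higher. Its forward strand went from 0.19 ± 0.14 to 0.85 ± 0.56 and was not called (adjusted p 0.0434), but 1 of its 2 probes was called higher, as were the mean of both, with a change of 0.71 (adjusted p 0.00847), and the region by SAM (significance analysis of microarrays, a permutation method) or without PPE 3 (adjusted p 0.00716). Among the tested names no probe was close, though the gene of a distant probe may begin or end nearer. The nearest, C230037E05Rik with its probe at 194273 bases, had a change of -1.03 that was not called (adjusted p 0.0154). It was called lower in several alternatives, among them slide as a block (adjusted p 0.00192). Shared bases were searched only among probes of the array, so whether these probes also match transcripts of other genes was not tested.

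The forward-strand region at chr6:57583950-57624216 rose by 2.32 (SE 0.17, adjusted p 2.17e-06), from -0.40 ± 0.17 to 1.92 ± 0.36. It lies 15283 bases from Herc6, an interferon-induced ubiquitin ligase of the HERC family on the same strand, which rose by 1.51 (SE 0.19, adjusted p 9.11e-05). At chr7:111526943-111545093 the reverse strand rose by 2.18 (SE 0.16, adjusted p 1.91e-06), on 1 tested probe, which shares 27 bases with the probe of Trim30c, a member of the tripartite-motif family. That probe lies inside the span and rose by 1.40 (SE 0.32, adjusted p 0.00524), so it is no independent reading of the region. Its call was lost with slide as a block (adjusted p 0.0125), with no filter (0.0102) and when any sham array or PPE 3 was left out (0.0102 to 0.0140). The forward strand of that span was lower by 0.65 on the log2 scale (change -0.65, adjusted p 0.000359). At chr4:146507925-146532650 the reverse strand rose by 2.15 (SE 0.27, adjusted p 9.83e-05) with 5 of 5 probes higher, and the pseudogene Znf41-ps, 22787 bases away, rose by 0.88 (SE 0.21, adjusted p 0.00585), a call lost when any of sham 2, 3 or 5 or PPE 1 to 4 was left out (adjusted p 0.0102 to 0.0173).

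The largest increase of all rested on a single probe. At chr18:35967933-35986564 on the forward strand, values went from 0.08, -0.07, 0.03, 0.04 and 0.30 to 3.83, 2.46, 3.41, 4.94 and 3.22, a change of 3.50 (SE 0.36, adjusted p 2.1e-05). Of the other tested probes of the region 1 was lower and the lowest had a change of -0.65, and the file gives no genome position for the probe that rose. The reverse strand had a change of -0.14, and Ube2d2a, a ubiquitin-conjugating enzyme gene 1847 bases away, one of 0.04, neither called. It is 1 of 2 regions whose probes were called in opposite directions. The other, singled out after its values were seen, is the forward-strand region at chr17:29374758-29387733, with probes from -1.43 to 2.20.

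One increase coincided with a named long non-coding gene. The reverse strand of chr19:53517903-53540753 had sham values of -0.59, -0.53, 0.40, -0.51 and -0.10 and PPE values of 2.54, 2.15, 2.12, 2.75 and 1.13, a rise of 2.40 (SE 0.29, adjusted p 7.76e-05), and all 9 of its tested probes rose. Mirt1, a long non-coding RNA gene with its probe inside this span on the same strand, rose by 2.61 (SE 0.30, adjusted p 5.02e-05), so both names measured the same stretch. The forward strand is represented by a probe with a change of 0.05 that was not called, but its 6 probes ran from 0.05 to 2.30, with 1 called higher, and their mean was called higher with a change of 0.47 (adjusted p 0.00322).

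**Figure D3:**
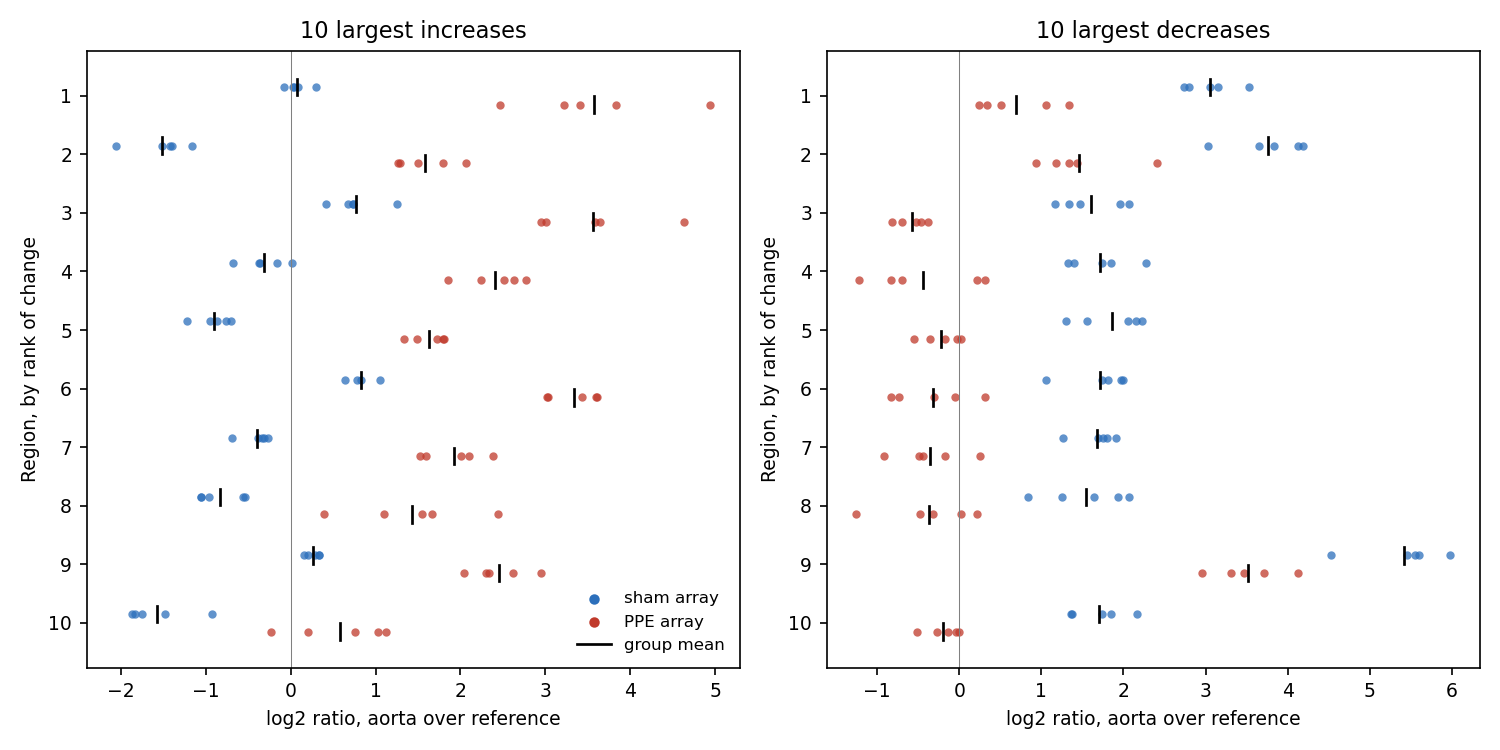
Log2 ratio of aorta over reference on each array (dots, sham blue and PPE red; black ticks are group means) for the regions with the 10 largest rises and 10 largest falls among those called, above background on all 10 arrays and without overlap, ranked by size of the change. The groups are separate in all 20 by that choice; rank 1 is the chromosome 18 region on the left (3.50) and the forward-strand chromosome 5 region on the right (-2.36).

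With median centring none of the 10 largest decreases was called, and their changes lay between -1.08 and -1.63. Among these decreases, the regions beside Enah had both agreeing probes and a named neighbour that fell with them. Enah encodes Mena, an actin-binding protein that promotes filament elongation. The region at chr1:183832694-183834125 had sham values of 1.96, 2.07, 1.16, 1.47 and 1.34 and PPE values of -0.69, -0.38, -0.46, -0.53 and -0.83, a change of -2.18 (SE 0.18, adjusted p 5.31e-06). The longer region at chr1:183783306-183834531, which contains it on the same strand, had a change of -2.08 (SE 0.19, adjusted p 1.17e-05), and each was lower in 3 of 3 probes. The probe of Enah lay 1519 and 1113 bases away on the same strand and fell by 2.13 on the log2 scale (SE 0.17, adjusted p 3.56e-06), from 1.55 ± 0.36 to -0.58 ± 0.16. All 3 names thus changed by about the same amount.

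A forward-strand stretch of chromosome 3 at Ttll7, a tubulin polyglutamylase gene, held 3 of the 10 largest decreases. The region at chr3:146645022-146646977 went from 1.91, 1.76, 1.80, 1.69 and 1.26 on sham to -0.92, 0.25, -0.44, -0.17 and -0.50 on PPE arrays, a change of -2.04 (SE 0.20, adjusted p 1.81e-05). The region that contains it, chr3:146629425-146649125, also had a change of -2.04 (SE 0.24, adjusted p 6.48e-05), and chr3:146515333-146557069 one of -1.91 (SE 0.30, adjusted p 0.000413). Every tested probe of the 3 regions was lower. Ttll7 on the same strand was lower by 0.76 (change -0.76, SE 0.18, adjusted p 0.00656), which is a smaller change than that of the regions although its probe lies inside one of the spans; the difference was not tested. The call of Ttll7 was lost with the replicate number as a block (adjusted p 0.0176) and when any sham array or PPE 2 was left out (0.0105 to 0.0200).

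At 3 other decreases the nearest named gene was not called. The reverse-strand region at chr18:61809278-61825191 was high in sham aorta, at 4.12, 3.84, 3.04, 4.19 and 3.65, and was at 0.93, 2.41, 1.43, 1.18 and 1.33 on PPE arrays. Its change was -2.31 (SE 0.29, adjusted p 8.41e-05), with 3 of 3 probes lower, and that of Il17b, a cytokine gene 24791 bases away on the other strand, was -0.88 (SE 0.24, adjusted p 0.0142, not called). Il17b was called lower with slide, scan day or the replicate number as a block (adjusted p 0.00183, 0.00155 and 0.00587), by SAM, and without sham 5, PPE 2 or both sham 5 and PPE 5 (0.00358, 0.00871 and 0.00705). At chr6:122741562-122743423 the reverse strand had a change of -1.89 (SE 0.17, adjusted p 7.82e-06) with 3 of 3 probes lower, the probe shown sharing bases with Uck1. The nearest name, LOC100048377 at 27544 bases, had a change of -0.05. The nearest protein-coding gene, C3ar1 at 54799 bases, was called in the opposite direction, with a change of 2.58 (SE 0.23, limma adjusted p 6.87e-06). At chr4:141527564-141547339 the forward strand had a change of -2.16 (SE 0.30, adjusted p 0.000193) on 1 tested probe, and Tmem51, 39699 bases off, had one of 0.73 that was not called.

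Both remaining large decreases were seen in 1 probe and not in others of the region. The forward strand of chr5:31856417-31916317 went from 3.16, 3.05, 2.74, 3.53 and 2.80 on sham to 0.50, 1.34, 0.24, 0.34 and 1.05 on PPE arrays, the largest decrease of all at -2.36 (SE 0.23, adjusted p 1.49e-05), while its 3 tested probes ran from -2.36 to 0.06. The reverse-strand region at chr11:96111499-96126224, in the Hoxb cluster of homeobox genes, had high ratios, at 5.42 ± 0.54 on sham and 3.52 ± 0.44 on PPE arrays. Its change was -1.91 (SE 0.27, adjusted p 0.000228) by 1 probe and 0.09 by the other. The nearest name, a forward-strand probe without a gene symbol at 1319 bases, was called in the opposite direction, with a change of 0.43 (adjusted p 0.00496) that was not called with slide as a block (adjusted p 0.0158). Hoxb9, the nearest protein-coding gene at 11524 bases, had a change of -0.16 and was not called. Such disagreement was not rare. Of 218 called regions with several tested probes, 177 had all probes of 1 sign and 132 had another probe called in the same direction, and 72 further called regions rested on 1 tested probe.

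Regions above background in 1 group only were few. They passed the filter through the group in which they are high, so their p-values are given beside the values and support nothing. Besides those on chromosome 2, the PPE group had chr4:3746573-3746891 on the forward strand, at least 2.19-fold higher (adjusted p 0.00175, PPE values 2.51, 1.18, 1.64, 1.88 and 0.71 against 0.03 to 0.29 on sham arrays). The reverse-strand regions at chr15:59966962-59972812 and chr4:88745770-88774130 had bounds of 1.53-fold and 1.46-fold (adjusted p 0.0106 and 0.0545), neither called. The sham group had 1, the reverse strand of chr16:13514223-13516070, at least 2.14-fold lower in PPE (adjusted p 0.0012), with sham values of 1.81, 1.04, 0.63, 1.45 and 0.73 and none of the PPE arrays above 0.14; with no filter it was not called (adjusted p 0.0229).

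The arrays hold both strands of 1067 loci, and 473 had both tested. In 382 of them neither strand was called and in 82 only 1 was. With 10.6% of all tested regions called, few loci would have both strands called even if the strands were unrelated. These counts are thus no measure of a preference for 1 strand. Both strands were higher at 3 loci and lower at 3, and at 3 they moved in opposite directions; those not yet named were singled out after their values were seen. Besides the pair on chromosome 1, whose forward-strand probes passed the filter mainly through PPE arrays, chr4:136856064-136877219 was higher by 1.18 on the forward and 0.67 on the reverse strand. Lower on both were chr3:146629425-146649125, chr10:81680941-81704964 (changes -1.76 and -0.77) and chr5:35975265-35982561 (-1.75 and -1.22). Opposite directions were found at chr5:31856417-31916317 (-2.36 forward, 0.68 reverse), chr7:111526943-111545093 (-0.65 and 2.18) and chr2:181650800-181669350 (-0.54 and 0.78). In the chromosome 5 case the mean of the reverse-strand probes was no longer called (0.40, adjusted p 0.0507). The difference between strands was not tested.

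Joined across gaps of up to 50 kb, the tested regions formed 1305 clusters, and 10 of these held 3 or more called regions, 35 in all. In 2 of the 10 both directions were present. After the chromosome 1 and 2 clusters, the one at chr6:30983012-31293337 had 3 lower of 10 tested. The called ones were chr6:31078802-31079644 (change -0.79, SE 0.12, adjusted p 0.000304), chr6:31170350-31287353 (-0.83, SE 0.14, adjusted p 0.000844) and chr6:31233512-31241062 (-0.94, SE 0.16, adjusted p 0.000699), with all of their tested probes lower. Under median centring these changes were -0.09, -0.20 and -0.34 (adjusted p 0.930, 0.863 and 0.729), so their calls depend on the scaling. On chromosome 5 the cluster was that of the disagreeing region above, with chr5:31883451-31884082 higher by 1.23 (SE 0.17, adjusted p 0.000228). This higher region was above background on 1 of 5 sham and all 5 PPE arrays, so its p-value supports nothing.

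At chr16:84702353-84710928, 3 of 5 tested regions were higher. The short forward-strand region at chr16:84708695-84708806 had sham values of -1.67, -0.95, -0.64, -1.41 and -0.28 and PPE values of 0.91, 1.34, 1.0, 0.59 and 1.79, a rise of 2.12 (SE 0.28, adjusted p 0.000148). The reverse-strand region rose by 1.19 (SE 0.20, adjusted p 0.000729). It was above background on 1 sham and 5 PPE arrays, and the one at 84707202 on 1 and 4. Both entered the comparison mainly through PPE arrays, so their p-values are given beside the values and support nothing. The third, chr16:84707202-84707748, changed by 0.48 (adjusted p 0.00784) and lost its call with slide as a block (adjusted p 0.0179), with the replicate number as a block (0.0176) and when any of 9 arrays was left out (sham 1, 2, 4 or 5 or any PPE array, adjusted p 0.0102 to 0.0214). The nearest named gene, Mrpl39, which encodes a mitochondrial ribosomal protein, was lower by 0.58 (change -0.58, SE 0.13, adjusted p 0.00351), although under median centring its change was 0.08. It also lost its call by the mean of its probes (-0.32, adjusted p 0.0340) and without sham 1 or 4 or PPE 3 or 4 (0.0105 to 0.0118). Mrpl39 was nearest to all 3 higher regions, which thus gave 3 of the 17 pairs over the array in which a region and its nearest named gene were called in opposite directions.

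Over the whole set, the region and the nearest tested named gene were compared for direction. The median distance to that gene's probe was 10390 bases, and for 617 tested regions (22.6%) the probe lay inside the region's span, 367 of them on the same strand, so a sizeable share of the regions is not clear of annotated transcripts. Of the 159 higher regions 60 (37.7%) had a neighbour that was also higher, against 13.3% of the neighbours of all tested regions. Of the 131 lower regions 36 (27.5%) had a lower neighbour, against 9.29%. Named genes with their own nearest named gene gave 28.4% and 19.3%. A neighbour that was not called was more common than either, with 92 of the higher and 85 of the lower regions. These shares describe the array and were not tested, since regions of a locus share transcripts and neighbours.

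The share was largest with the gene's probe inside the span. There, 22 of 38 higher regions had a higher neighbour and 14 of 35 lower regions a lower one. At gaps of up to 5 kb it was 9 of 26 and 13 of 34, at 5 to 50 kb 23 of 59 and 5 of 44, and at 50 to 500 kb 6 of 36 and 4 of 18. Pearson's r between both changes, across pairs that share the 10 arrays, was 0.54 inside the span (n = 617), 0.37 up to 5 kb (n = 464), 0.17 at 5 to 50 kb (n = 1067), 0.14 at 50 to 500 kb (n = 571) and 0.60 over the few pairs farther apart (n = 16). Inside the span it was 0.69 where region and gene lie on 1 strand (n = 367) and 0.26 where they lie on opposite strands (n = 249). For pairs of named genes with overlapping probes r was 0.81 (n = 211), so a link of this kind is not particular to the regions.

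**Figure D4:**
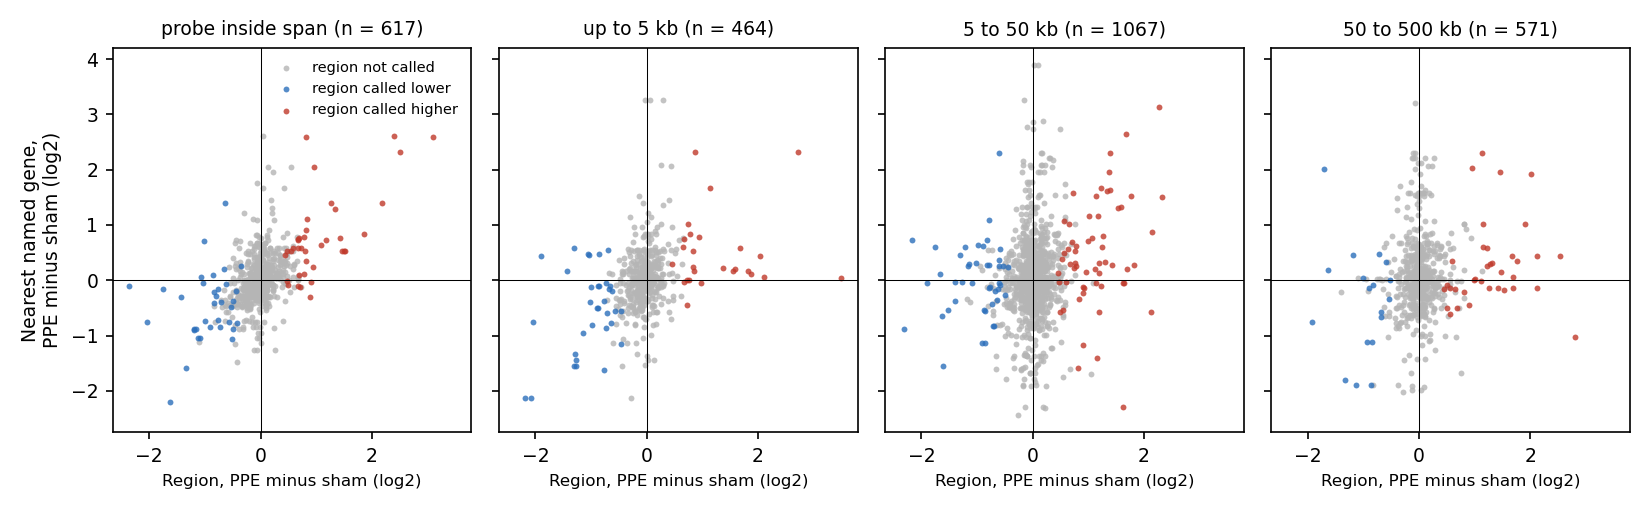
Change of each tested lincRNA region (horizontal) against that of its nearest named gene (vertical), both as PPE minus sham on the log2 scale, in panels by the gap between the region and the gene's probe; red and blue mark regions called higher and lower. The points follow the diagonal most with the probe inside the span (r = 0.54) and least at 50 to 500 kb (r = 0.14).

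Only 2 tested regions had a cell type marker as their nearest named gene within 50 kb. The reverse-strand region at chr6:115468025-115489250, which lies 27753 bases from the fat cell regulator Pparg, went from 0.09 ± 0.18 to -0.21 ± 0.17, a change of -0.30 that was not called (adjusted p 0.0833), while Pparg itself was lower by 1.15 (change -1.15, SE 0.24, adjusted p 0.00303). The forward-strand region at chr8:126396600-126407275, which lies 8922 bases from the skeletal muscle actin gene Acta1, rose by 0.90 (SE 0.23, adjusted p 0.00987), and Acta1 had a change of -1.16 that was not called. That call was at the threshold, 1 of the region's 2 probes had a change of 0.00, and the mean of both was not called (adjusted p 0.0269). The call was also lost with slide as a block (adjusted p 0.0101), with the replicate number as a block (0.0260), with no filter (0.0164) and when any of 7 arrays was left out (sham 1 to 4, PPE 1, 2 or 4, adjusted p 0.0146 to 0.0286).

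Long non-coding RNAs known by a symbol were read beside the regions, from a list of 64. By symbol or synonym, 48 matched a name on the array and 36 were tested. The unmatched ones may be on the array under a region name, which was not looked up. Of these 36, 4 were higher and 2 lower, where 13.9% of all names were higher and 9.96% lower, and the median change was 0.09, against 0.02 over all names. H19, an imprinted fetal transcript and precursor of miR-675, had sham values of -1.94, -2.45, -1.24, -0.10 and -1.66 and PPE values of 1.45, 2.22, 2.24, 1.49 and 1.85. Every PPE value exceeded every sham value, and the change was 3.33 (SE 0.37, adjusted p 4.07e-05), with all 6 tested probes between 2.40 and 3.35. The snoRNA host Zfas1 rose by 0.98 (SE 0.17, adjusted p 0.000872), Mirg, a microRNA host in the imprinted Dlk1-Dio3 domain, by 0.86 (SE 0.13, adjusted p 0.000314) and Mir17hg, the host of the miR-17-92 cluster, by 0.78 (SE 0.12, adjusted p 0.000324). With median centring these 3 were not called (adjusted p 0.0563, 0.152 and 0.125), and Mirg was not called with the deposited LogRatio either (0.68, adjusted p 0.0120).

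The imprinted Peg13 was lower by 0.91 (change -0.91, SE 0.18, adjusted p 0.00236) and the X-linked Firre by 0.84 (change -0.84, SE 0.17, adjusted p 0.00236). Both calls ended under median centring, with changes of -0.19 and -0.35 (adjusted p 0.885 and 0.665). Abundant nuclear transcripts were not called, with changes of -0.37 for Malat1, -0.36 for Neat1 and 0.09 for Meg3 (adjusted p 0.0835, 0.0910 and 0.819). Set by size, the increase of H19 was exceeded among the lincRNA regions only by that of the single chromosome 18 probe.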

How the data were processed

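The 5 sham and 5 PPE aortas were each read on 1 two-colour Agilent array, which the authors extracted with Agilent Feature Extraction (version 10.7.3.1). The mean signal of a spot and its median local background, per the file headers, are linear intensity values. LogRatio, as deposited, gives log10 of red divided by green, and the authors' series matrix holds log2 ratios of processed signals (equal on 100% of spots within 1e-04). Dyes were not swapped. The authors left out arrays of poor hybridization or set apart by clustering, which are not analysed here.

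Using limma 3.58.1 (R 4.3.3), the background was removed by normexp (offset 50), arrays were normalized by loess with control spots at weight 0, and spots marked as outliers were dropped (176 to 331 per array). Spots of 1 probe were averaged. Probes with red well above background on 5 or more arrays were tested (where a probe had several spots, at a share of 0.5 of them), and a name was represented by its brightest tested probe. Groups were compared by lmFit and eBayes, two-sided and unpaired, with Benjamini-Hochberg adjustment over 22520 names and a threshold of 0.01. The number of arrays limits the precision. Lower bounds of folds used red values after loess and Aquantile, with the dim group set, on each array, to the lowest signal of any probe well above background or to the probe's own if that was higher.

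Gene names of neighbours were updated through RefSeq (GRCm38.p6, names only), which matched 16105 of 19785 tested names. The nearest named gene is the tested probe with the smallest gap to the region's span on either strand, and 117 names without a position were left out. All distances to genes run to that probe, not to the ends of the gene. Of the region probes, 118 have no position in the files and 8 lie outside their span. Exons and UTRs were not annotated here. Limma was tested on simulated data.

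Named were the 10 largest increases and decreases among called regions above background on all 10 arrays without overlap, up to 5 regions per direction above background in 1 group only, the 5 loci with both strands tested and the largest change, the 5 clusters with most called regions, their nearest named genes, regions within 50 kb of a cell type marker, and called members of a list of named non-coding RNAs. The regions, lists and rules were chosen with earlier results of these data known. Alternatives covered background, normalization, filter, probe choice, slide, scan day, the replicate number and each array, and SAM, the study's test, written anew with 100 drawn relabellings.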

Additional observations from a re-analysis of the deposited data

Results flagged for a closer look

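Within groups of 5 arrays, Dixon's criterion was applied to the named regions, the called symbols and the share of regions detected, 103 groups in all, and it marked 2, where chance marks about 1 in 20. For chr3:146629425-146649125 on the forward strand, sham 5 lay at 1.06, with the next sham array at 1.74. For chr6:57583950-57624216 on the forward strand, sham 1 lay at -0.69, with the next at -0.38. Both arrays stayed clear of all PPE arrays.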

How the results depend on the processing

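Median centring changed most. It gave 12 higher and 0 lower regions, 2 regions called with their neighbour in the same direction in place of 96, and moved the change of Mrpl39 from -0.58 to 0.0839. Of 38 called regions named above, 9 kept their call under it, and 33 did under each other alternative in which they were tested. Regions without a probe above background on all 10 arrays were not tested under the filter of all 10. Lower regions numbered 226 with both the deposited LogRatio and the series matrix (169 and 170 higher, or 42.8% and 42.9% of calls). SAM called 300 higher and 224 lower, and every tested probe taken alone gave 402 and 260. A filter of all 10 arrays left 86 higher and 104 lower of 1102 regions, and 1 in place of 6 loci with both strands called alike. Leaving out regions with a named gene inside the span left 60 pairs called alike. Without 1 array in turn, higher regions ranged from 120 to 193 and lower ones from 89 to 144, and without sham 5 and PPE 5 together, an alternative chosen after seeing the data, they were 180 and 137. The causes of these differences were not tested, beyond the smaller or larger number of features compared. Other settings stayed within 1.5 times the main counts, as did clusters joined at 200 kb (12 for 10), the neighbour on the same strand (91) and the nearest protein-coding gene (90, chosen after seeing the data). None of the 1015 values of named regions under alternatives reversed a call. Equal replicate numbers did not pair the arrays as a set (correlations of deviations 0.29, -0.30, 0.16, -0.14 and 0.52). Only for number 5 was the PPE array of equal number the one most like the sham array. With the replicate block 154 regions were higher and 119 lower. Dim signal limits the rest: 1875 regions were never or too rarely above background to be tested.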
